A study of Mus musculus with 6 samples.

Results

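The actin cytoskeleton genes described here are 44 listed genes that encode actin, the factors that start, cap, cut and bundle its filaments, the myosins and tropomyosins that work on them, and the proteins that tie them to the membrane. They were found by gene symbol, and 40 of the 44 have at least 1 probe among the 19057 genes with a symbol on the array. No probe used here carried the symbol Actg1, Arpc3, Actr2 or Ezr, so these members were not analysed here. The filter on low signals removed Gsn, which encodes the filament-severing protein gelsolin, and left 39 members for the tests. RNA was measured on 6 bead arrays of CD206+ F4/80+ CD11b+ macrophages, called M2-like in the labels, from mice of the strain C57BL/6 at an age of 10 weeks. The 3 groups of 2 arrays each were cells of the heart after myocardial infarction (MI heart), cells of the intact heart and cells of the peritoneal cavity. The labels name no transgene, deletion or drug for any group. For the time after infarction, any sham operation, how the cells were sorted and the animals behind each array, the labels give no information.

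Actin monomers join into polar filaments that grow at one end and are taken apart at the other. The Arp2/3 complex starts branches on existing filaments, profilin and thymosins hold the pool of monomers, capping proteins stop growth, and cofilin with its partners cuts old filaments. Macrophages use branched networks to crawl and to engulf particles, bundled filaments to form fingers and feet at the cell edge, and linker proteins to pull on their surroundings.

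Values are background-corrected, quantile-normalised signals on the log2 scale, and each array's own value is given. A probe counted as above background at a detection p under 0.05, and between 12433 and 14606 probes met this on an array. A member was called higher or lower in a comparison where its adjusted p, from limma's moderated test with Benjamini-Hochberg adjustment over 10533 tests, was under 0.05. Whether both arrays of a group came from different animals is unstated in the labels, so the p-values rest on array-to-array variation that could be technical. As to the gate, Mrc1, which encodes CD206, had log2 signals of 8.64 and 9.07 on the MI heart arrays, 9.57 and 9.51 on the intact heart arrays and 5.20 and 4.99 on both peritoneal arrays. The peritoneal cells were thus far below both heart groups in the RNA of a marker that names all 3 groups. Itgam, which encodes CD11b, had 7.15 and 6.86 on the MI heart arrays, 6.32 and 5.64 on the intact heart arrays and 8.16 and 7.96 on both peritoneal arrays, and was called in all 3 comparisons. Adgre1, which encodes F4/80, was not called in any. The RNA is of bulk samples, so fewer cells of a type and less RNA per cell cannot be told apart.

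Of the 39 tested members, 13 were called in at least 1 of the 3 comparisons and 26 in none. Of all tests, 68% were called in none, so the members' count lay near that share. Between MI heart and intact heart, 4 members (10.3%) were higher in MI heart and 2 (5.13%) lower, against 4.55% of all tests called higher and 4.96% called lower. Between intact heart and peritoneal cavity, 5 members (12.8%) were higher in intact heart and 4 (10.3%) lower, against 12.5% and 12.8% of all tests. Between MI heart and peritoneal cavity, 4 members (10.3%) were higher in MI heart and 2 (5.13%) lower, against 9.16% and 8.45% of all tests. The members' shares lay near those of all tests in the peritoneal comparisons, and the 4 and 2 members of the heart comparison are small counts. The 3 comparisons share arrays, so a member high or low in 1 group can be called in a pair of them.

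**Figure D1:**
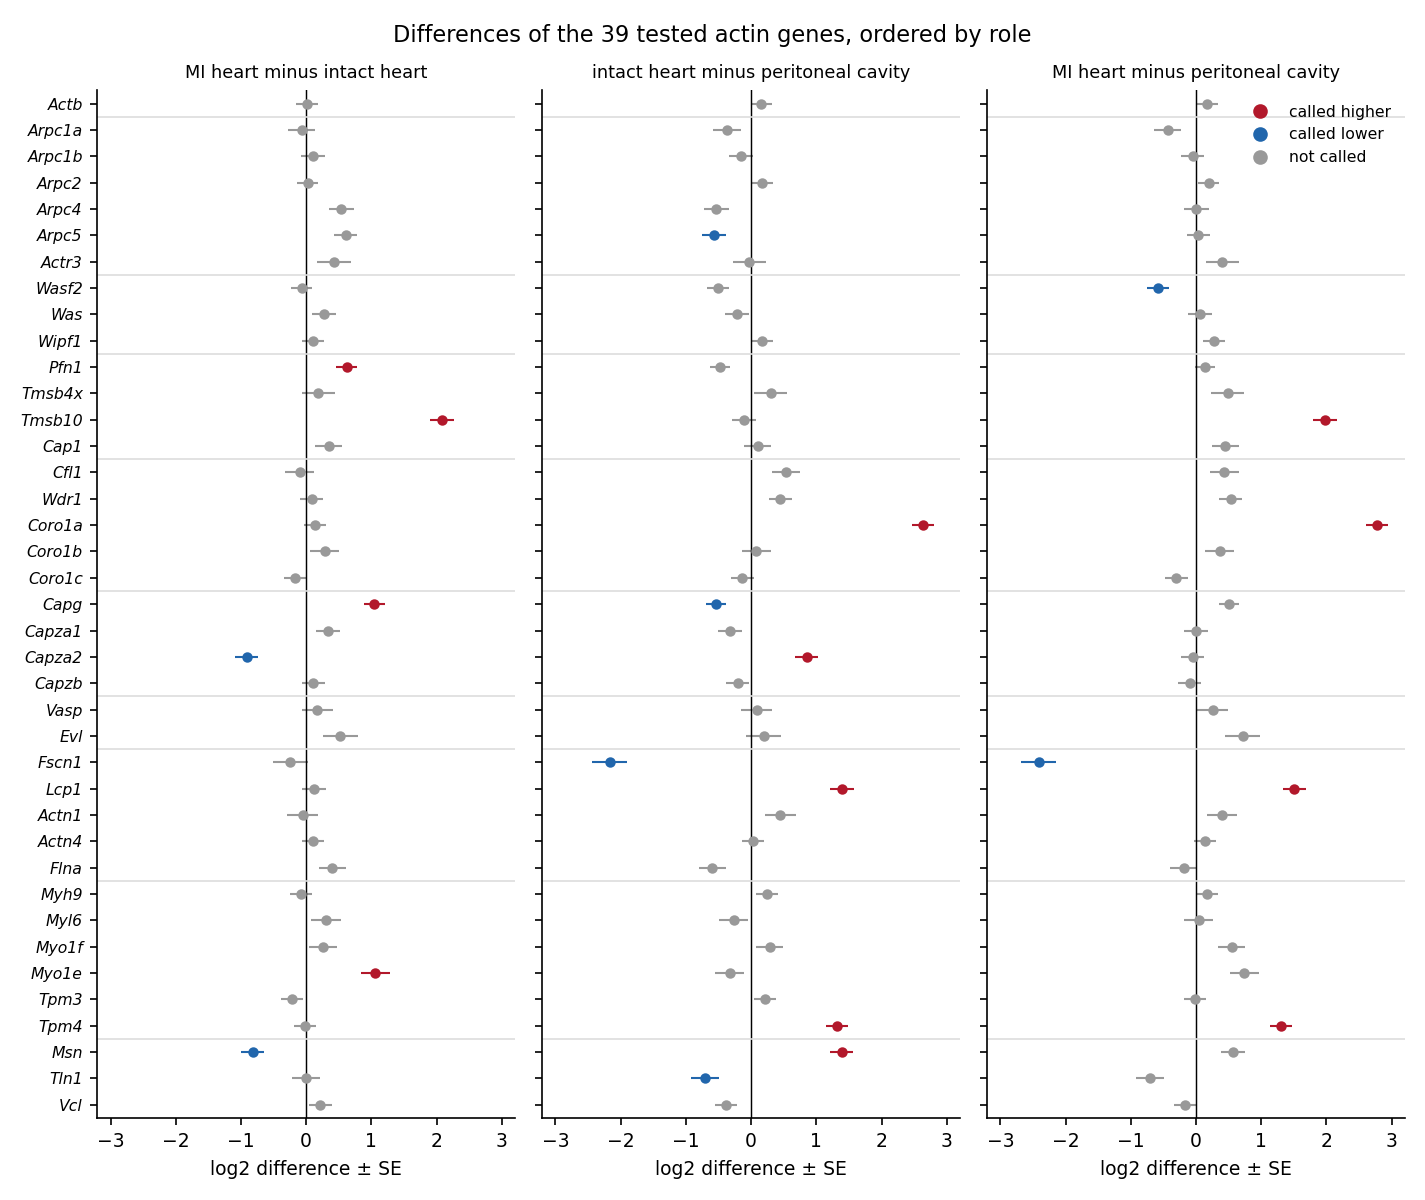
Log2 difference ± SE of each of the 39 tested actin genes in the 3 comparisons (n = 2 arrays per group), ordered by role from top to bottom, with members called higher in red, called lower in blue and not called in grey. Most points lie within 0.5 of zero, and Tmsb10, Coro1a, Fscn1, Lcp1, Tpm4 and Msn stand farthest from it.

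The median difference of the members was 0.12 in MI heart minus intact heart, 0.03 in intact heart minus peritoneal cavity and 0.17 in MI heart minus peritoneal cavity. The same medians over all tests were -0.00, -0.03 and -0.05. Most members differed little: 30 of 39 (76.9%), 26 (66.7%) and 26 (66.7%) lay within 0.5 of zero, against 80.1%, 68% and 75% of all tests. Scaling the arrays to a common median in place of quantile normalisation moved the median of all tests to 0.12, -0.18 and -0.07, and the members' median relative to it was then 0.27, -0.05 and 0.20. That scaling changed the sign of the members' median in the intact heart comparison with the peritoneal cavity. It also moved the share of all calls that were higher to 78.8%, against 47.9%, in MI heart minus intact heart, to 27.9%, against 49.4%, in intact heart minus peritoneal cavity, and to 49.4%, against 52%, in MI heart minus peritoneal cavity. MI heart had the highest group mean for 22 of the 39 members (56.4%), intact heart for 7 (17.9%) and the peritoneal cavity for 10 (25.6%). Over all tests these shares were 25.5%, 33.6% and 40.9%. With median scaling the members' counts were 26, 3 and 10 (66.7%, 7.69% and 25.6%). The shares over all tests also moved, to 30.1%, 21.4% and 48.4%. These counts describe the members and were not tested.

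**Figure D2:**
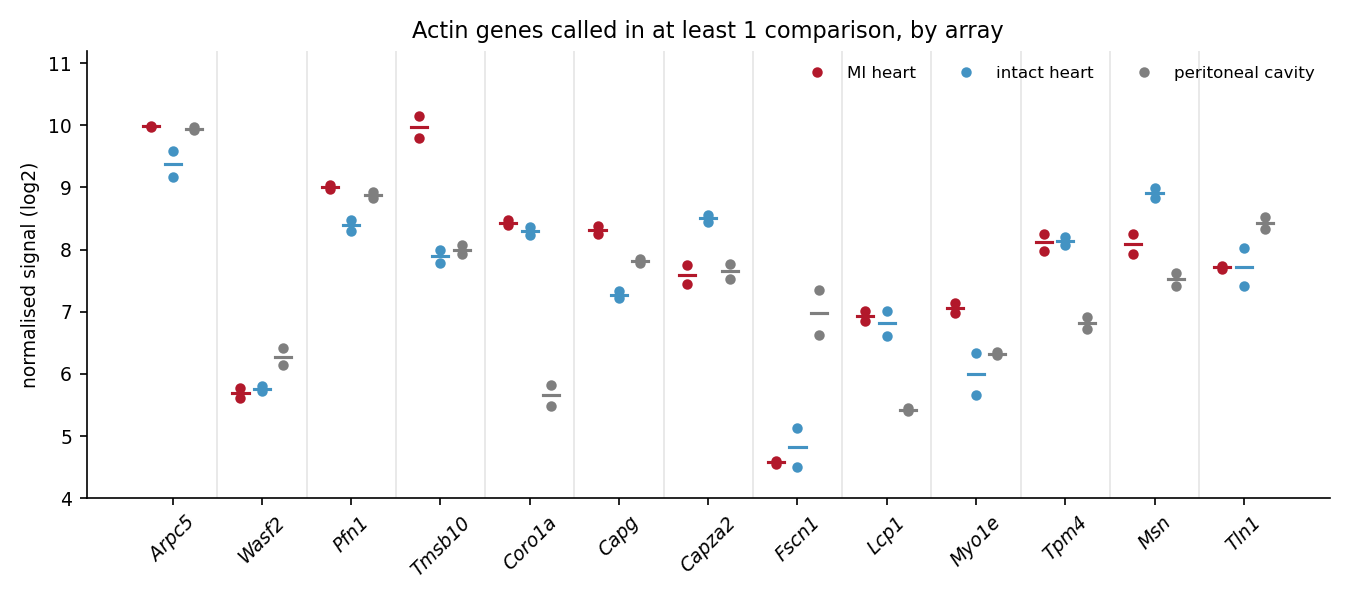
Normalised log2 signal on each array of the 13 actin genes called in at least 1 comparison, with MI heart in red, intact heart in blue and peritoneal cavity in grey (points are arrays, bars are means of 2 arrays). Tmsb10 is high on both MI heart arrays, Coro1a, Lcp1 and Tpm4 are low on both peritoneal arrays, and Fscn1 is high on both peritoneal arrays.

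Actb, which encodes the main cytoplasmic actin, had log2 signals of 11.28 and 11.24 on the MI heart arrays, 11.37 and 11.13 on the intact heart arrays and 11.18 and 11.01 on both peritoneal arrays. The intact heart arrays overlapped with those of both other groups, and no comparison was called. The difference between MI heart and intact heart was 0.01 (95% interval -0.37 to 0.38, adjusted p = 0.984). It was 0.16 (-0.22 to 0.53) for intact heart minus peritoneal cavity and 0.17 (-0.21 to 0.54) for MI heart minus peritoneal cavity. Actb has 5 kept probes, and 1 of them gave 0.64 between MI heart and intact heart (adjusted p = 0.061) and -0.58 between intact heart and peritoneal cavity (adjusted p = 0.046). The other 4 probes lay between 0.0039 and 0.19 in intact heart minus peritoneal cavity, so they did not share that call.

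The 6 tested subunits of the Arp2/3 complex, which starts branched filaments, gave 0 calls between MI heart and intact heart. An unadjusted p of the limma test under 0.05 was found for 2 of the 6, against 2649 of all 10533 tests. The subunits' differences ranged from -0.07 to 0.60. The largest was that of Arpc5, the smallest subunit, whose log2 signals were 9.99 and 9.98 on the MI heart arrays, 9.17 and 9.59 on the intact heart arrays and 9.92 and 9.97 on both peritoneal arrays. Both intact heart arrays lay below all others. Arpc5 was lower in intact heart than in the peritoneal cavity by a log2 difference of -0.57 ± 0.18 (SE, adjusted p = 0.0489), a 1.48-fold difference. Its difference between MI heart and intact heart was 0.60 ± 0.18 (adjusted p = 0.0716) and not called. The peritoneal call did not hold without intact heart replicate 1 (-0.35, adjusted p = 0.199), without either peritoneal array (adjusted p = 0.154 and 0.181) and without either MI heart array (adjusted p = 0.0874). It was also lost with the mean of the 3 kept probes (-0.38, adjusted p = 0.111).

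Arpc4, a core subunit of the complex, was lowest on the intact heart arrays without a call, with log2 signals of 7.51 and 7.71 on the MI heart arrays, 6.84 and 7.30 on the intact heart arrays and 7.58 and 7.64 on both peritoneal arrays. Its adjusted p was 0.118 between MI heart and intact heart and 0.0713 between intact heart and peritoneal cavity. The actin-related subunit Actr3 had differences of 0.43, -0.03 and 0.40 in MI heart minus intact heart, intact heart minus peritoneal cavity and MI heart minus peritoneal cavity, and its second kept probe had the opposite sign in each. By the probes used, the subunits Arpc1a, Arpc1b and Arpc2 lay between -0.43 and 0.19 in all 3 comparisons, and none was called. Of the 3 kept probes of Arpc1a, 1 other was called lower in intact heart than in the peritoneal cavity (-0.56, adjusted p = 0.028). With 2 arrays a group, small changes of these subunits were not detectable.

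Of the 3 members that switch the Arp2/3 complex on, Wasf2 gave the only call. Wasf2, which encodes the WAVE subunit that acts below Rac, had log2 signals of 5.61 and 5.77 on the MI heart arrays, 5.80 and 5.73 on the intact heart arrays and 6.14 and 6.41 on both peritoneal arrays. Both peritoneal arrays lay above all heart arrays. Wasf2 was lower in MI heart than in the peritoneal cavity by a log2 difference of -0.59 ± 0.17 (adjusted p = 0.0432), and the difference for intact heart was -0.51 ± 0.17 (adjusted p = 0.0538). The call was lost without either MI heart array (adjusted p = 0.22 and 0.127), without either peritoneal array (adjusted p = 0.0746 and 0.229) and with the mean of its 2 kept probes (-0.34, adjusted p = 0.15). Was, the blood-cell member of the Wiskott-Aldrich family, and its partner Wipf1 lay between -0.21 and 0.28 and were not called.

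The clearest difference between MI heart and intact heart was that of Tmsb10, which encodes thymosin beta 10, a small peptide that binds single actin molecules. Its log2 signals were 10.16 and 9.80 on the MI heart arrays, 7.78 and 8.0 on the intact heart arrays and 7.92 and 8.08 on both peritoneal arrays. Both MI heart arrays stood apart from the other 4 arrays, which were close together. Tmsb10 was higher in MI heart than in intact heart by 2.09 ± 0.18 (adjusted p = 0.000489, 4.25-fold) and higher than in the peritoneal cavity by 1.98 ± 0.18 (adjusted p = 0.000126, 3.93-fold). Intact heart minus peritoneal cavity gave -0.11 ± 0.18 (adjusted p = 0.696). Its 3 kept probes were all called in both MI heart comparisons, with differences of 1.63 to 2.09 against intact heart and 1.13 to 1.98 against the peritoneal cavity. The call against intact heart held under all 16 alternatives, with values of 1.82 to 2.32. So did the call against the peritoneal cavity, with values of 1.62 to 2.15. Some of the alternatives give the same fit, so here and below they are not 16 separate checks.

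Tmsb4x, which encodes the related peptide thymosin beta 4, had log2 signals of 9.17 and 9.49 on the MI heart arrays, 9.39 and 8.91 on the intact heart arrays and 8.53 and 9.16 on both peritoneal arrays. The intact heart arrays overlapped with those of both other groups, and the difference between MI heart and intact heart was 0.18 ± 0.25 (adjusted p = 0.707). Both MI heart arrays lay just above the peritoneal arrays (0.49 ± 0.25, adjusted p = 0.241), and Tmsb4x was not called in any comparison. Pfn1, which encodes profilin, the protein that loads actin onto growing ends, had 9.04 and 8.98 on the MI heart arrays, 8.48 and 8.30 on the intact heart arrays and 8.83 and 8.92 on both peritoneal arrays. Both intact heart arrays were the lowest, and Pfn1 was higher in MI heart than in intact heart by 0.62 ± 0.16 (adjusted p = 0.0425, 1.54-fold). Leaving out any of the 6 arrays ended that call: the adjusted p was 0.205 and 0.173 without the MI heart arrays, 0.0573 and 0.111 without the intact heart arrays and 0.0785 without either peritoneal array. With the mean of its 2 kept probes the difference was 0.39 (adjusted p = 0.105). Cap1, which recycles actin monomers, was not called in any comparison, with 0.35, 0.10 and 0.45 in MI heart minus intact heart, intact heart minus peritoneal cavity and MI heart minus peritoneal cavity.

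Among the 5 tested genes of filament severing and turnover, Coro1a separated the hearts from the peritoneal cavity. Coro1a, which encodes the coronin of blood cells, had log2 signals of 8.47 and 8.40 on the MI heart arrays, 8.23 and 8.36 on the intact heart arrays and 5.49 and 5.82 on both peritoneal arrays. The 4 heart arrays lay close together and far above both peritoneal arrays. The difference was 2.64 ± 0.17 for intact heart minus peritoneal cavity (adjusted p = 1.42e-05, 6.23-fold) and 2.78 ± 0.17 for MI heart minus peritoneal cavity (adjusted p = 1.2e-05, 6.85-fold). Between MI heart and intact heart it was 0.14 ± 0.17 (adjusted p = 0.68). All 4 kept probes were called in both peritoneal comparisons. The second gave 2.58 with intact heart and 2.76 with MI heart. The other two were not above background on every peritoneal array, and were at least 3.4-fold and 1.39-fold higher in intact heart and at least 4.02-fold and 1.63-fold higher in MI heart. Both calls held under all 16 alternatives, with values of 1.71 to 2.81 for intact heart and 1.83 to 2.94 for MI heart, the smallest without background correction.

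The related coronins Coro1b and Coro1c, found in most cell types, were not called. Coro1b lay at 0.28, 0.08 and 0.36 in MI heart minus intact heart, intact heart minus peritoneal cavity and MI heart minus peritoneal cavity, and Coro1c at -0.17, -0.14 and -0.30. Whether these differences differ from that of Coro1a was not tested. Cfl1, which encodes the severing protein cofilin, had log2 signals of 7.05 and 7.65 on the MI heart arrays, 7.33 and 7.57 on the intact heart arrays and 6.84 and 6.99 on both peritoneal arrays. All heart arrays were above the peritoneal arrays, but no comparison was called (adjusted p = 0.227 for MI heart and 0.106 for intact heart against the peritoneal cavity). Wdr1, the helper of cofilin, had a log2 difference of 0.53 ± 0.18 between MI heart and peritoneal cavity (adjusted p = 0.0727) and was not called.

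Capping genes, whose products close the growing end of a filament, moved in both directions. Capg, which encodes a capping protein of the gelsolin family that is abundant in macrophages, had log2 signals of 8.39 and 8.25 on the MI heart arrays, 7.22 and 7.33 on the intact heart arrays and 7.78 and 7.85 on both peritoneal arrays. The 3 groups did not overlap, with MI heart highest and intact heart lowest. Capg was higher in MI heart than in intact heart by 1.05 ± 0.16 (adjusted p = 0.00527, 2.07-fold) and lower in intact heart than in the peritoneal cavity by a log2 difference of -0.54 ± 0.16 (adjusted p = 0.0336). MI heart minus peritoneal cavity was 0.51 ± 0.16 (adjusted p = 0.057). Both kept probes were called between MI heart and intact heart (1.00 and 1.05), and the call was lost without MI heart replicate 1 (0.98, adjusted p = 0.0631). The peritoneal call was lost without any single array, with an adjusted p of 0.051 to 0.143.

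Capza2, which encodes an alpha subunit of the capping protein dimer, had log2 signals of 7.75 and 7.44 on the MI heart arrays, 8.56 and 8.45 on the intact heart arrays and 7.76 and 7.54 on both peritoneal arrays. Both intact heart arrays were above the other 4. Capza2 was lower in MI heart than in intact heart by a log2 difference of -0.91 ± 0.18 (adjusted p = 0.0154, 1.88-fold) and higher in intact heart than in the peritoneal cavity by 0.86 ± 0.18 (adjusted p = 0.00773, 1.81-fold). The first call was lost without either MI heart array (adjusted p = 0.0597 and 0.133), without intact heart replicate 1 (adjusted p = 0.0525) and with median scaling (-0.60, adjusted p = 0.115). The second was lost without peritoneal cavity replicate 2 (adjusted p = 0.0689) and with median scaling (0.55, adjusted p = 0.0802). The other alpha subunit, Capza1, and the beta subunit, Capzb, were not called and lay between -0.33 and 0.33. In each comparison 1 kept probe of Capzb had the opposite sign to the probe used, though not the same probe throughout.

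The 2 members that keep filaments growing against capping, Vasp and Evl, were not called. Evl had log2 signals of 5.47 and 4.81 on the MI heart arrays, 4.92 and 4.32 on the intact heart arrays and 4.30 and 4.55 on both peritoneal arrays. Only 1 intact heart array and 1 peritoneal array were above background for it, so these signals lie near the floor. Its difference was 0.52 between MI heart and intact heart (adjusted p = 0.265). It was 0.19 for intact heart (adjusted p = 0.639) and 0.72 for MI heart (adjusted p = 0.107) against the peritoneal cavity. Its arrays within MI heart differed more than those of any other member within that group, by 0.66. Vasp lay between 0.09 and 0.26 in the 3 comparisons.

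Among the 5 genes of crosslinking and bundling, Fscn1 and Lcp1 moved in opposite directions between the hearts and the peritoneal cavity. Fscn1 encodes fascin, which packs filaments into the tight bundles of cell protrusions. Its log2 signals were 4.60 and 4.55 on the MI heart arrays, 5.13 and 4.51 on the intact heart arrays and 7.35 and 6.63 on both peritoneal arrays. The heart arrays lay near the lowest signal that counted as above background on an array (4.42 to 4.52), and both peritoneal arrays far above it. Fscn1 was lower than in the peritoneal cavity by a log2 difference of -2.17 ± 0.27 in intact heart (adjusted p = 0.000579, 4.5-fold) and -2.41 ± 0.27 in MI heart (adjusted p = 0.000372, 5.32-fold). Both calls held under the 15 alternatives that tested the gene, which the stricter filter removed, but their size did not: the values ranged from -2.53 to -1.05 for intact heart and from -2.77 to -1.12 for MI heart, the smallest without background correction.

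Lcp1 encodes plastin 2, the bundling protein of white blood cells. Its log2 signals were 7.01 and 6.85 on the MI heart arrays, 6.62 and 7.01 on the intact heart arrays and 5.40 and 5.45 on both peritoneal arrays. The hearts overlapped with each other and lay above both peritoneal arrays. Lcp1 was higher by 1.39 ± 0.18 in intact heart (adjusted p = 0.000722, 2.62-fold) and by 1.51 ± 0.18 in MI heart (adjusted p = 0.000536, 2.85-fold) than in the peritoneal cavity. Both calls held under all 16 alternatives, with values of 0.72 to 1.59 for intact heart and 0.79 to 1.59 for MI heart, the smallest without background correction. The actinins Actn1 and Actn4, which space filaments apart, lay between -0.05 and 0.45 and were not called. Flna, which encodes the crosslinker filamin A, was not called either. It had 4.40 and 4.60 on the intact heart arrays and 5.05 and 5.13 on both peritoneal arrays (adjusted p = 0.0675). The ratio of the means was 1.51-fold, but intact heart replicate 1 was not above background. With that array set to its lowest signal above background, the ratio was 1.45-fold. As the gene was not called, neither value is a difference shown by the test.

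Of the 6 myosin and tropomyosin genes, Myo1e was called between MI heart and intact heart and Tpm4 against the peritoneal cavity. Tpm4 encodes a tropomyosin, which coats filaments along their length. Its log2 signals were 8.25 and 7.98 on the MI heart arrays, 8.20 and 8.07 on the intact heart arrays and 6.72 and 6.91 on both peritoneal arrays. The hearts overlapped and lay above both peritoneal arrays. Tpm4 was higher by 1.32 ± 0.17 in intact heart (adjusted p = 0.00071, 2.5-fold) and by 1.30 ± 0.17 in MI heart (adjusted p = 0.000902, 2.47-fold) than in the peritoneal cavity. All 3 kept probes were called in both comparisons, with differences of 0.92 to 1.95 for intact heart and 1.05 to 1.32 for MI heart, and both calls held under all 16 alternatives. The probe used for the related gene Tpm3 was not called, at 0.21 between intact heart and peritoneal cavity, while 1 of its 4 kept probes gave 1.17 (adjusted p = 0.0121).

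Myo1e encodes a single-headed myosin that works at the membrane where cells take up material. Its log2 signals were 7.15 and 6.98 on the MI heart arrays, 5.67 and 6.33 on the intact heart arrays and 6.35 and 6.30 on both peritoneal arrays. Both MI heart arrays were above the other 4, and intact heart replicate 1 was the lowest. Myo1e was higher in MI heart than in intact heart by 1.06 ± 0.22 (adjusted p = 0.021, 2.09-fold), and the difference from the peritoneal cavity was 0.74 ± 0.22 (adjusted p = 0.0522). The call was lost without either MI heart array (adjusted p = 0.158 and 0.107), without intact heart replicate 1 (0.73, adjusted p = 0.0569) and without either peritoneal array (adjusted p = 0.058). Myh9, the heavy chain of the main non-muscle myosin, the light chain Myl6 and the blood-cell myosin Myo1f lay between -0.27 and 0.54 and were not called.

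Promoters were searched for the CArG box, the site of the serum response factor SRF, which turns on many actin genes when monomers run short. RefSeq's windows of build GRCm38.p6, from 250 bases before to 50 after each start site in the direction of transcription, covered 42 of the 44 members, with no entry for Actb and Coro1b. Both strands were searched for this 1 motif. A match lay in 5 of the 53 member windows (9.43%), against 535 of 32851 windows of all genes (1.63%). Counted by gene, these are 5 of 42 members (11.9%) against 488 of 27025 genes (1.81%). The 5 matches are shown with up to 10 bases on each side, the box in capitals, because 1 of them lies in the promoter of the called member Myo1e. They begin 90 bases before the start site in Actg1 (chr11:120348446-120348745, minus strand), 250 in Arpc4 (chr6:113377863-113378162, plus strand), 50 in Myl6 (chr10:128492960-128493259, minus strand), 32 in Myo1e (chr9:70207100-70207399, plus strand) and 227 in Vcl (chr14:20929148-20929447, plus strand).
Actg1: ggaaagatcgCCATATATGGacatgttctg
Arpc4: CCTAATTTGGtgcccaacct
Myl6: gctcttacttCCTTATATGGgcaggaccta
Myo1e: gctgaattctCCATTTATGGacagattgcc
Vcl: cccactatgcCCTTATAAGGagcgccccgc

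Of these 5, Myo1e was the only member called in a comparison, so its whole window is shown, with the box in capitals. The other 12 called members had no match in their windows, which says only that these letters are not in those 300 bases. A match is a description of the sequence, and binding of SRF was not measured. Srf itself, at 8.59 and 8.56 on the MI heart arrays, 9.18 and 8.76 on the intact heart arrays and 8.44 and 8.15 on both peritoneal arrays, was higher in intact heart than in the peritoneal cavity by 0.68 ± 0.19 (adjusted p = 0.0324). None of the 4 tested genes of SRF and its cofactors was called between MI heart and intact heart.
Myo1e: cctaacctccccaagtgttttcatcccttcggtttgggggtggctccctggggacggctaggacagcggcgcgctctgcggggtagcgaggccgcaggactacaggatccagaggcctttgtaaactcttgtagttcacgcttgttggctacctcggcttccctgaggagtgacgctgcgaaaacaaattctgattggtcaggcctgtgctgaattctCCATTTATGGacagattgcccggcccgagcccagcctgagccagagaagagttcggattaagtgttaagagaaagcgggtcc

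Among the 3 tested genes that link actin to the membrane and to adhesions, Msn and Tln1 were called. Msn encodes moesin, which ties the cortex of blood cells to membrane proteins. The probe used had log2 signals of 8.25 and 7.93 on the MI heart arrays, 8.99 and 8.83 on the intact heart arrays and 7.63 and 7.41 on both peritoneal arrays. The 3 groups did not overlap on this probe, with intact heart highest and the peritoneal cavity lowest. By it, Msn was lower in MI heart than in intact heart by a log2 difference of -0.82 ± 0.18 (adjusted p = 0.0254) and higher in intact heart than in the peritoneal cavity by 1.39 ± 0.18 (adjusted p = 0.000694, 2.62-fold).

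The second kept probe of Msn gave the opposite direction between MI heart and intact heart, 0.69 ± 0.15, and was also called (adjusted p = 0.0265, over 14817 probes tested on their own). It gave -0.16 between intact heart and peritoneal cavity (adjusted p = 0.481). With the mean of both probes the heart difference was -0.07 (adjusted p = 0.819), so the direction of Msn between the hearts depends on the probe. Msn was the only member with kept probes called in both directions in 1 comparison. The call of the probe used was also lost without either MI heart array (adjusted p = 0.0745 and 0.18), without intact heart replicate 1 (adjusted p = 0.0821) and without either peritoneal array (adjusted p = 0.0531). The call of intact heart against the peritoneal cavity held under all 16 alternatives, with values of 0.61 to 1.5. The second probe by itself did not share its direction, so that call depends on the probe too. In MI heart minus peritoneal cavity both probes were positive. The probe used gave 0.57 ± 0.18 (adjusted p = 0.0633, not called) and the second 0.53 ± 0.15 (adjusted p = 0.0427 among probes tested on their own). Msn was called there with the mean of probes and with the replicate block.

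Tln1 encodes talin, which switches integrins on. Its log2 signals were 7.74 and 7.69 on the MI heart arrays, 8.03 and 7.42 on the intact heart arrays and 8.33 and 8.52 on both peritoneal arrays. Both peritoneal arrays were above all heart arrays. Tln1 was lower in intact heart than in the peritoneal cavity by a log2 difference of -0.70 ± 0.21 (adjusted p = 0.0418), and MI heart minus peritoneal cavity was -0.71 ± 0.21 (adjusted p = 0.0524). The call did not hold without intact heart replicate 2 (-0.40, adjusted p = 0.169), without either peritoneal array (adjusted p = 0.112 and 0.205), without either MI heart array (adjusted p = 0.0808) and without background correction (adjusted p = 0.0557). Vcl, which encodes the talin partner vinculin, lay between -0.38 and 0.22 and was not called.

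**Figure D3:**
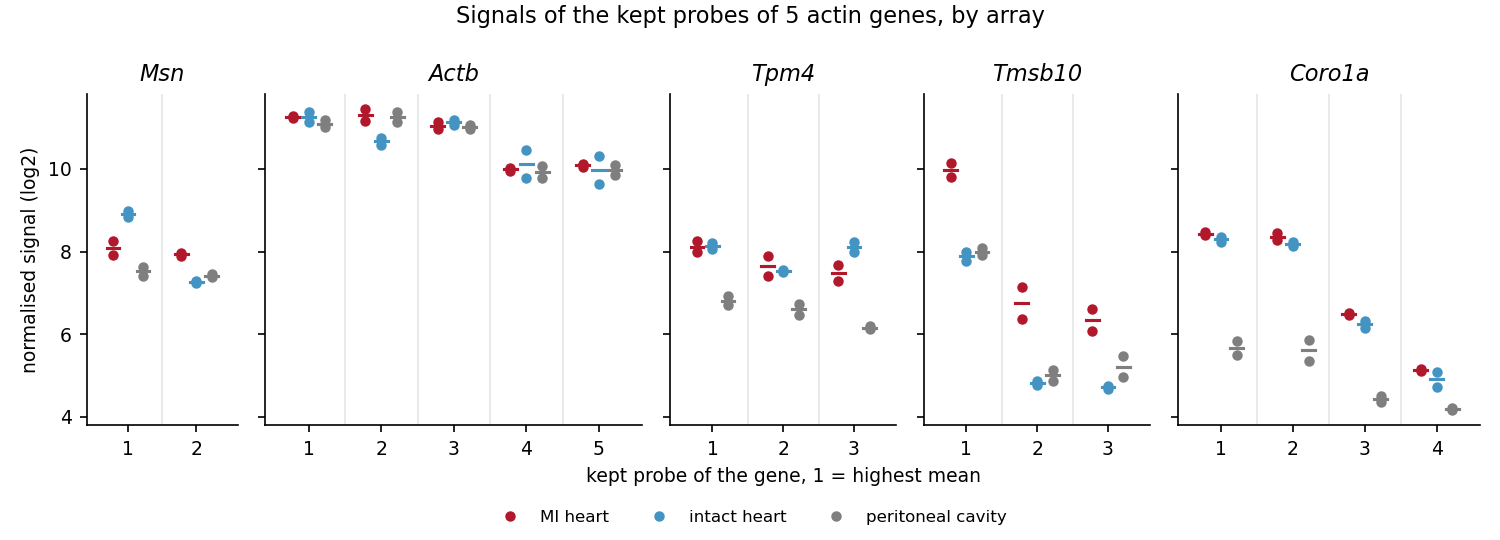
Normalised log2 signal on each array of every kept probe of Msn, Actb, Tpm4, Tmsb10 and Coro1a, numbered by mean signal with 1 as the probe used, for MI heart (red), intact heart (blue) and peritoneal cavity (grey), with bars as means of 2 arrays. The 2 Msn probes run in opposite directions between MI heart and intact heart, while all probes of Tmsb10 are highest in MI heart and all probes of Coro1a and Tpm4 are lowest in the peritoneal cavity.

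Over the 19 members with several kept probes, at least 1 probe had the opposite sign to the probe used in 8 members between MI heart and intact heart, in 8 between intact heart and peritoneal cavity and in 5 between MI heart and peritoneal cavity. The probes of Arpc5 spanned -0.02 to 0.64 between MI heart and intact heart, and those of Arpc1a spanned -0.07 to 0.20. Wasf2 spanned -0.07 to 0.13, Capzb -0.35 to 0.45 and Tpm4 -0.64 to 0.13 in that comparison. Between intact heart and peritoneal cavity, the second probe of Pfn1, near background, had the opposite sign, Actn4 spanned -0.15 to 0.08 and Myl6 spanned -0.27 to 0.12. In MI heart minus peritoneal cavity, Arpc1b spanned -0.10 to 0.25 and Tpm3 -0.22 to 0.51. The arrays of intact heart differed most from each other. Between them 9 members differed by over 0.5, the widest being Actn1 at 0.69. There were 3 such members between the MI heart arrays and 2 between the peritoneal arrays. The wider scatter of intact heart was also seen over all tests, so it was not particular to the members. Over all tests, gaps within a pair of arrays had standard deviations of 0.37 (intact heart), 0.27 (MI heart) and 0.29 (peritoneal cavity). For the members these values were 0.39, 0.27 and 0.26.

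Of 96 tested actin regulators outside the members, from lists of signalling, nucleation, turnover, motor and adhesion genes, 6 (6.25%) were higher and 7 (7.29%) lower in MI heart than in intact heart, against 4.55% and 4.96% of all tests. In intact heart against the peritoneal cavity 19 (19.8%) were higher and 15 (15.6%) lower, against 12.5% and 12.8% of all tests. In MI heart against the peritoneal cavity 13 (13.5%) were higher and 12 (12.5%) lower, against 9.16% and 8.45% of all tests. The differences between these shares were not tested.

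**Figure D4:**
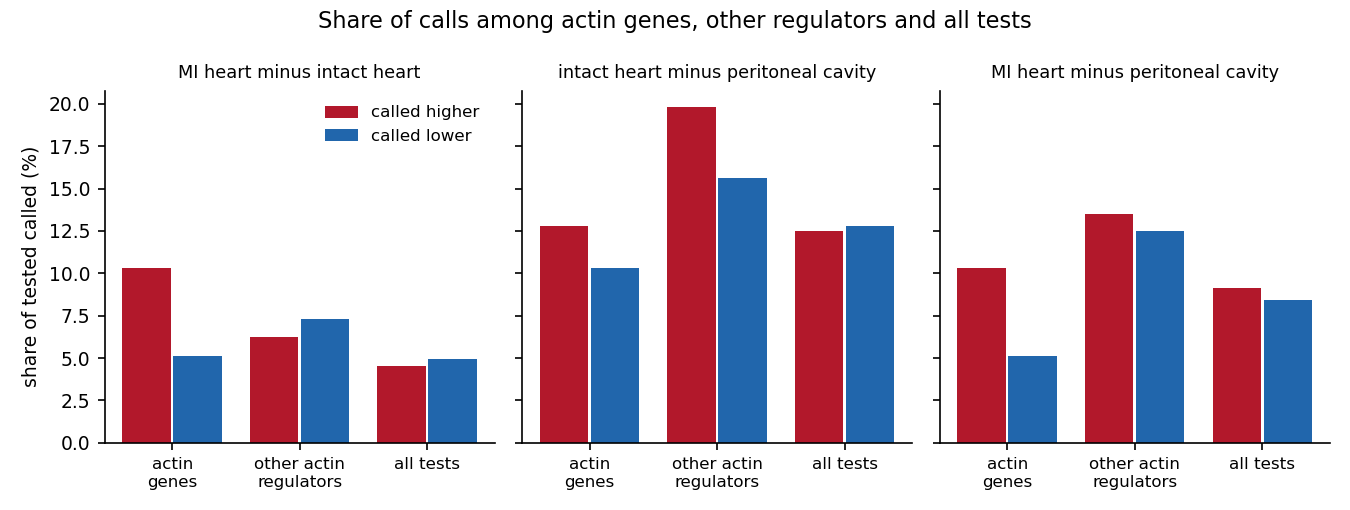
Share of tested genes called higher (red) and lower (blue) in each comparison, in percent, for the 39 actin genes, the 96 other actin regulators and all 10533 tests. In the peritoneal comparisons the actin genes' shares lie near or under those of all tests, and the other regulators' shares lie above them.

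Between MI heart and intact heart, the widest differences among these called regulators were those of Tmod1 and Abi3. Abi3, a subunit of the WAVE complex that Wasf2 belongs to, had 6.89 and 6.65 on the MI heart arrays, 5.14 and 4.99 on the intact heart arrays and 7.85 and 8.09 on both peritoneal arrays. The groups did not overlap, and the differences were 1.71 ± 0.17 for MI heart minus intact heart (adjusted p = 0.000969), -2.91 ± 0.17 for intact heart minus peritoneal cavity (adjusted p = 8.72e-06) and -1.20 ± 0.17 for MI heart minus peritoneal cavity (adjusted p = 0.00162). Cyfip2, another WAVE subunit, was at least 1.85-fold higher in MI heart than in intact heart (adjusted p = 0.00858), and Arpc5l, the paralogue of Arpc5, was lower in MI heart (-1.05, adjusted p = 0.00559). Such bounds are given where at least 1 array of the dimmer group was not well above background, and set the brighter group's mean against the dim group's own signal or the lowest signal above background on its arrays, whichever was higher. Tmod1, which caps the slow-growing end, was at least 3.17-fold lower in MI heart than in intact heart (adjusted p = 0.00055), and Fscn2, a paralogue of Fscn1, at least 2.27-fold lower (adjusted p = 0.00756). Swap70 was also lower (-1.40, adjusted p = 0.0145), as were Mylk (at least 1.86-fold), Arhgef6 (-0.68) and Limk2 (-0.88). Rac2, the Rac of blood cells, was higher in MI heart (0.82, adjusted p = 0.0334), and so were Rhog (0.72), the integrin activator Fermt3 (0.76) and Lpp (0.80).

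Against the peritoneal cavity, Marcks, which binds actin at the membrane, was higher in intact heart by 2.46 ± 0.22 (adjusted p = 8.92e-05) and in MI heart by 2.39 ± 0.22 (adjusted p = 0.000126). The formin Fmnl1 was higher in intact heart by 1.39 and in MI heart by 1.18, and Rhob by 1.64 and 1.16. Vav1, which activates Rac, was higher by 0.77 and 0.78, and Myo5a by 0.72 and 0.72. Sptbn1, a spectrin of the membrane skeleton, was lower in intact heart (-1.56) and in MI heart (-2.00) than in the peritoneal cavity, as were Add3 (-1.39 and -1.52), Parvb (-1.21 and -1.35), Fermt3 (-1.60 and -0.84), Tagln2 (-0.84 and -1.03) and Abi2 (-0.61 and -0.88). Myo6 was at least 2.31-fold lower in intact heart and at least 2.26-fold lower in MI heart. In intact heart, the rule by size also named, as higher than in the peritoneal cavity, Swap70 (2.07), Fhod1 (1.25), Elmo1 (0.91), Spire1 (0.88), Tmod1 (at least 3.26-fold) and Mylk (at least 2.04-fold), and, as lower, Arhgef1 (-1.05), Rac2 (-0.94), Cotl1 (-0.89), Myl12b (-0.77), Arhgdib (-0.69) and Diaph1 (-0.60). In MI heart it also named, as higher, Aif1 (2.13), Cyfip2 (at least 1.93-fold), Hcls1 (0.88) and Iqgap1 (0.85), and, as lower, Arpc5l (-0.73), Add1 (-0.62) and Myo7a (-0.55). Being named in 1 comparison is no difference between the hearts: Aif1 (1.78), Iqgap1 (0.77) and Hcls1 (0.59) were called higher in intact heart too, and Fhod1 (0.84) in MI heart too.

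Actin genes are active in many cell types, so marker lists of others are given beside the calls. All 13 macrophage markers were tested, with a summed signal of 5550 to 6469 on the MI heart arrays, 5225 to 5356 on the intact heart arrays and 6836 to 7421 on the peritoneal arrays. Of these, Itgam (1.02) and Fcgr1 (0.85) were higher and Cx3cr1 (-0.93) lower in MI heart than in intact heart. Against the peritoneal cavity, Mrc1, Cd14 and Cx3cr1 were higher and Itgam and Lyz2 lower in both hearts, and Fcgr1 was higher in MI heart. Of 14 fibroblast markers on the array, 8 were tested. The summed signal of all 14 was 199.3 to 205.9 on the MI heart arrays, 68.44 to 102.3 on the intact heart arrays and 43.41 to 47.96 on the peritoneal arrays. The fibroblast markers Col1a1, Col5a1, Sparc and Bgn were called higher in MI heart than in intact heart, while Col1a2, Postn, Fap, Thy1 and Tcf21 were not above background on any array. Against the peritoneal cavity, Sparc and Bgn were called higher in both hearts, and Col1a1, Col5a1 and Dcn in MI heart. Of 19 cardiomyocyte markers on the array, 11 were tested. The summed signal of all 19 was 143.6 to 144.7 on the MI heart arrays, 249.6 to 299.5 on the intact heart arrays and 118.9 to 123.7 on the peritoneal arrays. Myl2 and Myl3 of that list were lower in MI heart than in intact heart, and Myh7, Actc1, Tnni3, Myl7 and Ckm were not above background on any array. Against the peritoneal cavity, Myl2 and Myl3 were called higher and Ryr2 lower in both hearts. Tnnc1 and Nppa were called higher in intact heart than in the peritoneal cavity.

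The smooth muscle and pericyte list, with 6 of 11 markers tested, summed to 88.53 to 94.31 on the MI heart arrays, 136.3 to 150.2 on the intact heart arrays and 68.67 to 77.6 on the peritoneal arrays. Mylk of that list, also 1 of the regulators above, was called lower in MI heart than in intact heart. Rgs5 and Mylk were called higher in intact heart than in the peritoneal cavity. The sums are over all markers of a list on the array, tested or not. For the 11 neutrophil markers, of which 3 were tested, the sum was 239.5 on MI heart replicate 1 and 76.24 on MI heart replicate 2. It was 70.27 to 82.88 on the intact heart arrays and 53.45 to 63.95 on the peritoneal arrays. S100a9 of that list was called higher in MI heart than in both other groups. The 5 platelet markers, of which 2 were tested, summed to 101.1 to 149.3 on the MI heart arrays and 192.2 to 197.4 on the intact heart arrays. On the peritoneal arrays they summed to 193.2 to 303.9. Ppbp was called higher in both hearts than in the peritoneal cavity, and Pf4 was called lower in MI heart than in the peritoneal cavity. The dendritic cell list, with 4 of 9 tested, summed to 48.01 to 48.17 in MI heart, 78.78 to 97.98 in intact heart and 34.86 to 36.36 in the peritoneal cavity. Siglech of that list was called lower in MI heart than in intact heart, and Batf3 and Siglech higher in intact heart than in the peritoneal cavity. Of the endothelial, B cell, T cell and mesothelial lists, 1 of 13, 2 of 7, 1 of 6 and 1 of 5 markers were tested, and none was called in any comparison. The part of these cells in the differences of the actin genes was not tested.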

How the data were processed

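RNA of 6 samples was measured on Illumina bead arrays. The main deposited table gives, per the file headers, 1 linear signal intensity and 1 detection p-value for every probe and array. The deposited series matrix also holds intensity values, with a shared distribution on all arrays. Neither the scanner software nor the authors' normalisation is given in the sources used here. Columns of the matrix match the other replicate of the same group for MI heart and peritoneal cavity, and the groups are the same.

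The intensities went through neqc of limma 3.58.1 (R 4.3.3), which infers negative controls from detection p-values, with offset 16, quantile normalisation and log2. Kept probes had a detection p under 0.05 on both arrays of 1 or more groups (14817 of 45281). Of all probes, 34885 had 1 gene symbol in the platform annotation, 18 several and 10378 none. The probe with the highest mean stood for its gene, which gave 8244 genes and 2289 unnamed probes. lmFit and eBayes fitted the 3 group means to the 6 arrays (3 residual and 5.78 prior degrees of freedom), two-sided, with a threshold of 0.05 after Benjamini-Hochberg adjustment over 10533 tests.

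The members, roles, regulator lists and markers were chosen with earlier results of these data known. Array values are given, per comparison, for up to 6 called members per direction with the largest difference that were above background in both groups and did not overlap. Of each regulator list, the 3 called genes per direction with the largest difference are named. The other array values shown, those of Actb, Arpc4, Tmsb4x, Cfl1, Evl, Flna, Abi3 and Srf, were chosen after they were seen. Those of Mrc1 and Itgam are given as genes of the gate. Alternatives were the background correction, offset, scaling, deposited normalised values, filter, choice of probe, groups in the fit, replicate block and leaving out each array. The code was tested on simulated data with known changes. Promoter sequences and coordinates are those of RefSeq on GRCm38.p6.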

Additional observations from a re-analysis of the deposited data

How the results depend on the processing

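Of 21 calls of members, 11 held under every one of the 16 alternatives that tested them, 10 were lost under at least 1, and 0 changed direction. Testing every probe on its own was scored on the probe used, so it changes only the spread and the adjustment. In each comparison, fitting only the groups compared and leaving out either array of the remaining group gave the same results. The 16 alternatives are thus not 16 separate checks. Besides what is named with the members, testing without a filter ended the calls of Pfn1, Capza2, Myo1e and Msn in MI heart minus intact heart, of Arpc5 and Tln1 in intact heart minus peritoneal cavity and of Wasf2. The stricter filter ended those of Pfn1, Arpc5, Wasf2 and, in intact heart minus peritoneal cavity, Capg. Median scaling ended those of Arpc5, Wasf2 and, between the hearts, Msn. An offset of 50 and the deposited normalised values ended that of Tln1. Lower calls in MI heart minus intact heart numbered 2 and came to 0 with median scaling, 0 with no filter, 1 with the mean of probes and 1 with only the 2 groups compared in the fit, and higher calls, 4, came to 2 with no filter and 2 with only those groups. Lower calls in intact heart minus peritoneal cavity, 4, came to 7 with median scaling, 1 with the stricter filter and 2 with only those groups. In MI heart minus peritoneal cavity, lower calls, 2, came to 1 with no filter and 1 with the stricter filter, and higher calls, 4, to 7 with only those groups. Median scaling gave member medians of 0.39 in MI heart minus intact heart and -0.23 in intact heart minus peritoneal cavity. The causes were not tested.

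Leaving out 1 array at a time, where the lone array is assumed to vary like the other groups, gave 1 to 5 higher calls, 0 to 2 lower calls and medians of 0.014 to 0.28 in MI heart minus intact heart. It gave 4 to 7, 1 to 4 and -0.11 to 0.14 in intact heart minus peritoneal cavity, and 4 to 7, 1 to 3 and 0.13 to 0.20 in MI heart minus peritoneal cavity. Without intact heart replicate 2, Arpc4 and Arpc5 were called between MI heart and intact heart.

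With the replicate block, 6, 12 and 9 members were called in MI heart minus intact heart, intact heart minus peritoneal cavity and MI heart minus peritoneal cavity, against 6, 9 and 6 without it. Correlations of same-numbered deviations were 0.08, 0.17 and 0.18. These are not all over 0.1 and no label ties the numbers, so the numbers, which are those of the signal table and not of the series matrix, were not taken to pair the arrays; a shared day or batch was not tested. Over all tests, calls in MI heart minus intact heart numbered 479 higher and 522 lower, against 201 and 223 with no filter, 245 and 320 with the stricter filter, 288 and 302 with only those groups and 612 and 165 with median scaling. In intact heart minus peritoneal cavity they numbered 1321 and 1352, against 770 and 753 with the stricter filter and 742 and 1922 with median scaling. In MI heart minus peritoneal cavity they numbered 965 and 890, against 584 and 600 with no filter and 538 and 516 with the stricter filter. Leaving out 1 array gave as few as 134 and 99, 754 and 672, and 536 and 362 higher and lower calls in these 3 comparisons. With 2 arrays a group, their number limits the precision.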
